A study of Mus musculus with 384 samples.

Results

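The genes described here are 38 lipid genes of the mouse, taken by name from the 49585 genes of a single-cell RNA-seq count table. The names were listed by function, and earlier results of these data were known when they were chosen. The functions were suppliers of acetyl-CoA and NADPH, fatty acid synthesis, desaturation and elongation, fatty acid activation and triglyceride assembly. Droplet and milk fat globule proteins, fatty acid uptake and carriage, transcriptional control and sterol synthesis made up the rest. All 38 names matched 1 row each. The study sorted single mammary cells from embryos and adults into 1 plate of 384 wells and read their polyadenylated RNA with Smart-seq2, a full-length protocol with PCR amplification.

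Embryonic cells came from Lgr5-EGFP-IRES-CreER animals at embryonic day 14, from female skin that held the mammary buds, and were gated as CD49f Hi/Lgr5 Hi, that is, with high integrin alpha-6 and high reporter signal for the Wnt target gene Lgr5. Adult cells came from Rosa-tdTomato mammary glands without lymph nodes and were gated as CD24+CD29Hi (basal) or CD24+CD29Lo (luminal). In all gates, dead cells and cells with CD45, CD31 or CD140a, surface markers of leukocytes, endothelium and mesenchyme, had been sorted out. The gates therefore differ in genotype, age, tissue preparation and antibody panel as well as in cell type, and these cannot be told apart. No agent was given, and the labels used here name neither the adults' age nor individual animals. Each gate is therefore 1 sample, no test was possible, and the intervals below cover counting error only.

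Fatty acids are built from acetyl-CoA by acetyl-CoA carboxylase and fatty acid synthase, then elongated, desaturated, activated to acyl-CoA and joined to glycerol as triglyceride, which is stored in droplets coated by perilipins. In the mammary gland the secretory epithelium enlarges this route in pregnancy and lactation, and milk fat droplets leave the cell wrapped in membrane with the help of xanthine dehydrogenase and butyrophilin. Cholesterol is made from the same precursor by the mevalonate route. Both routes are controlled by the SREBP transcription factors, which the INSIG proteins hold back when sterols are plentiful.

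Promoters are shown for 4 genes with different patterns below: Hmgcs1, Insig1 and Fasn, which were highest in the embryonic gate, and Plin2, which was highest in the luminal gate. Each line gives the 250 bases before the start of the RefSeq transcript (GRCm38.p6), read 5' to 3' on the gene's strand, and capitals mark any match on either strand to the sterol regulatory element TCACNCCAC, the CCAAT box or the E-box CACGTG.
Hmgcs1, chr13:119690101-119690350, plus strand: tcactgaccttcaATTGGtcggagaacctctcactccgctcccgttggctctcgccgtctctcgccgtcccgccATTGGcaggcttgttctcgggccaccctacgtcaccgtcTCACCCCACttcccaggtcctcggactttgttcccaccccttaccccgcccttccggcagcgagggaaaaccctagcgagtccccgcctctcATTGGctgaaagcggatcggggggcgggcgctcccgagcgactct
Insig1, chr5:28071162-28071411, plus strand: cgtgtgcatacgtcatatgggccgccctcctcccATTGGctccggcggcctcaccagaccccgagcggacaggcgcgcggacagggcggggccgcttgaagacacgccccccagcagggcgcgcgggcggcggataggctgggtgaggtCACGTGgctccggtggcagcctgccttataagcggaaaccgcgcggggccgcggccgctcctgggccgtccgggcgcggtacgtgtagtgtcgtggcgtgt
Fasn, chr11:120824548-120824797, minus strand: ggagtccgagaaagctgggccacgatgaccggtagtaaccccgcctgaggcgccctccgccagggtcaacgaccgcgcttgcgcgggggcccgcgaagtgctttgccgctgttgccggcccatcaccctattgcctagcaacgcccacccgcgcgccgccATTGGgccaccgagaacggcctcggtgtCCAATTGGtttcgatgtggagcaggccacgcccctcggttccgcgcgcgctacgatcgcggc
Plin2, chr4:86670060-86670309, minus strand: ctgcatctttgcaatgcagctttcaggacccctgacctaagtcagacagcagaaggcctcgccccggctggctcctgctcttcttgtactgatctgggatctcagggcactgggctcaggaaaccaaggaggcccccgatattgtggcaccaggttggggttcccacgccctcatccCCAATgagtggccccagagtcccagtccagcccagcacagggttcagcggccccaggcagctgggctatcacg
Hmgcs1 held the sterol element once, on its own strand, and 3 CCAAT matches on the opposite strand. Insig1 held 1 CCAAT match and 1 E-box. Fasn held 3 CCAAT matches, the closest at 59 to 55 bases, where 2 of them overlap, and Plin2 held 1 at 73 to 69 bases. The RefSeq table held 26 of the 38 genes. In the same window the sterol element was found in Hmgcs1 and Acsl1, 7.69% of these 26 genes and 1.23% of the table's 27025 genes. The CCAAT box, bound by the factor NF-Y, was found in 19 of the 26 (73.1%) and in 37.5% of all genes, and the E-box in 2 of the 26 (7.69%) and in 6.86% of all genes. A match describes letters and was not set against any binding data.

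Of 376 single-cell wells, 347 had at least 50000 reads on genes: 36.6% of them embryonic, 31.1% basal and 32.3% luminal, with medians of 697600, 450200 and 525200 reads. The 3 wells of 50 cells, 1 per gate, had 532820 to 621792 reads. In such pooled wells, fewer cells of a type and less RNA per cell cannot be told apart. At least 3 of 8 mammary bud markers were detected in 88.98% of embryonic cells, 3 of 7 basal markers in 82.4% of basal cells and 3 of 6 luminal markers in 97.3% of luminal cells. Detected means at least 5 reads after each cell had been thinned to 50000 reads. By rank correlation with the wells of 50 cells, 1 embryonic, 10 basal and 3 luminal wells resembled another gate more than their own. At least 3 of 8 endothelial markers were detected in 7 basal wells, and at least 3 of 8 fibroblast markers in 22 embryonic and 6 basal wells. The gates lay mostly in different plate rows, so row and gate cannot be told apart for most cells.

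Levels are reads summed over a gate's cells and scaled to 1000000 gene reads of that gate (CPM), and a gene was measured in a comparison at 5 CPM or more in either gate. Against basal cells, 33 of the 38 genes were measured, of which 12 were at least 2-fold higher in embryonic cells and 10 at least 2-fold lower. Over all 12808 measured genes these shares were 33.8% higher and 19.4% lower, against 36.4% and 30.3% of the lipid genes. Against luminal cells, 11 of 32 measured genes were higher in embryonic cells and 11 lower (34.4% each), where all genes gave 39.3% and 17.6%. Between the adult gates, 5 of 34 were higher in basal cells and 8 lower (14.7% and 23.5%), where all genes gave 28.3% and 21.3%. With all kept wells the shares of higher genes were thus near or under the background, and only the lower shares of the embryonic gate lay well above it. The median log2 ratio of the measured lipid genes was -0.31, 0.34 and -0.16 in the 3 comparisons, where all genes gave 0.38, 0.58 and 0.14. The values against basal cells rested in part on the 7 basal wells with endothelial markers. Without these wells, 13 of 32 measured lipid genes were higher in embryonic than in basal cells and 8 lower. All genes then gave 34.5% and 18.6%. The median log2 ratio to basal was then 0.07 for the lipid genes and 0.40 for all genes. Each gate enters 2 of the 3 comparisons, so these are not independent. With TMM scaling, which moved the median of all genes to 0.07 against basal and 0.13 against luminal cells, the split was 10 higher and 14 lower against basal cells and 7 higher and 11 lower against luminal cells. All genes then gave 26.7% higher and 24.55% lower against basal and 29.1% and 24.4% against luminal cells.

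**Figure D1:**
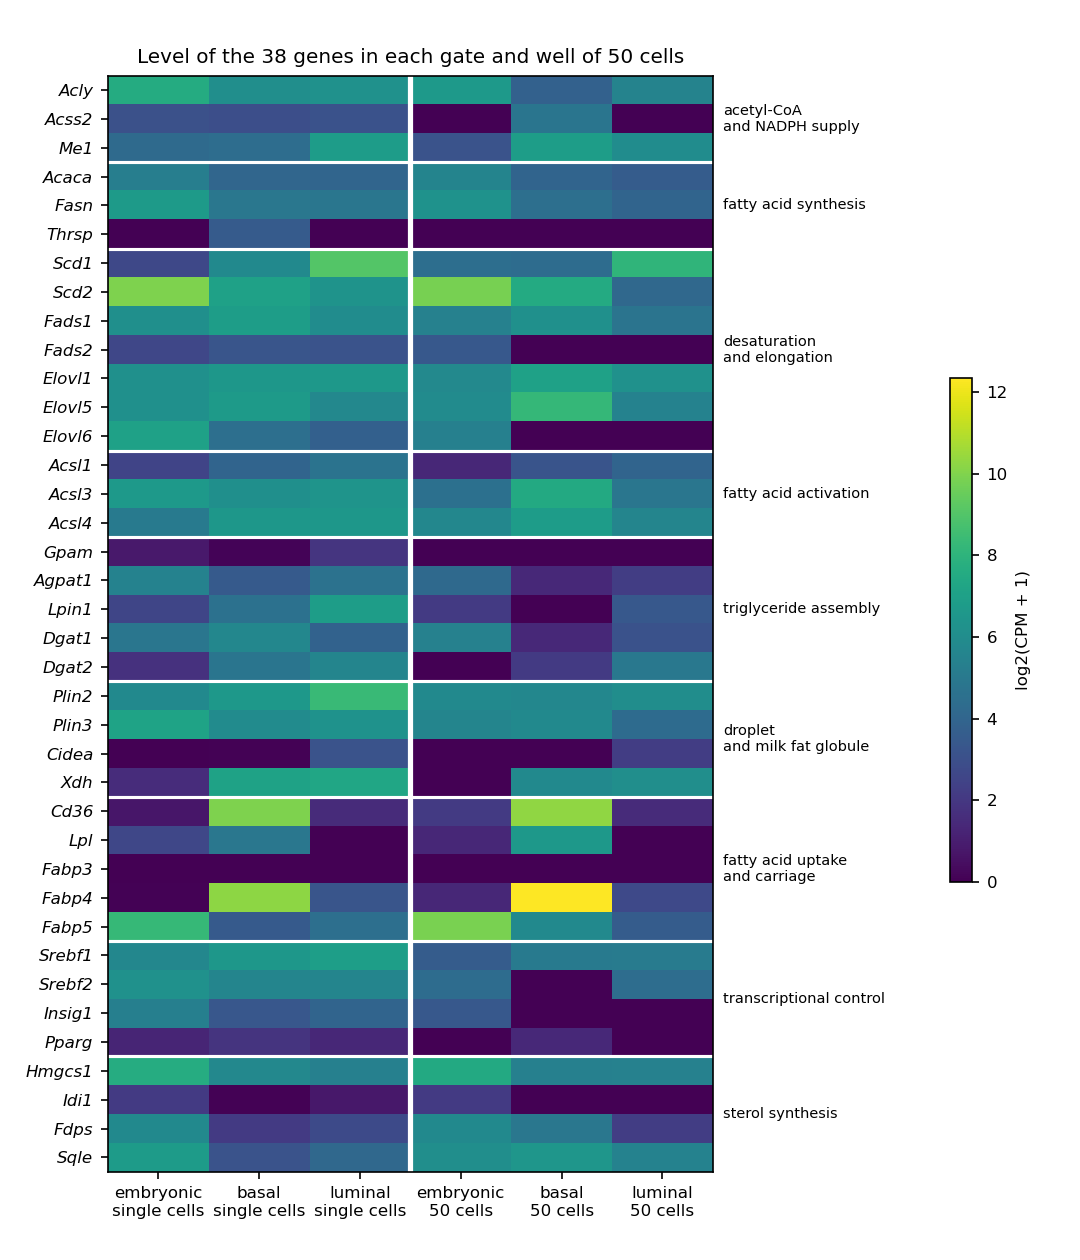
Levels of the 38 genes (rows, in blocks by role) as log2(CPM + 1) in the 3 gates of single cells and the 3 wells of 50 cells (columns). Scd2 and Fabp5 are high in the embryonic columns, Scd1 in the luminal ones, and Cd36 and Fabp4 in the basal ones.

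The group was thus not one block: some roles were higher in the embryonic gate and others in the adult ones. Levels per kb of exon used the merged exons of all annotated transcripts of a gene. The highest in embryonic cells were Scd2 at 184.6 CPM per kb, Fabp5 at 85.2 and Hmgcs1 at 43.4. In luminal cells they were Scd1 at 108.6 and Plin2 at 93.6 CPM per kb, and in basal cells Cd36 at 277.3 and Fabp4 at 271.7. Merged exons can be longer than the transcript a cell makes, which lowers the value. The order of genes within a gate therefore depends on the length used. A typical embryonic cell had 6 of the 38 genes detected, a basal cell 3 and a luminal cell 4 (medians). Across cells of a gate the genes hardly varied together: over 45 pairs of the 10 genes detected in at least 20% of embryonic cells, Spearman's rho had a median of 0.09 and a highest value of 0.29. These cells share a plate and a gate, and the values are a description.

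**Figure D2:**
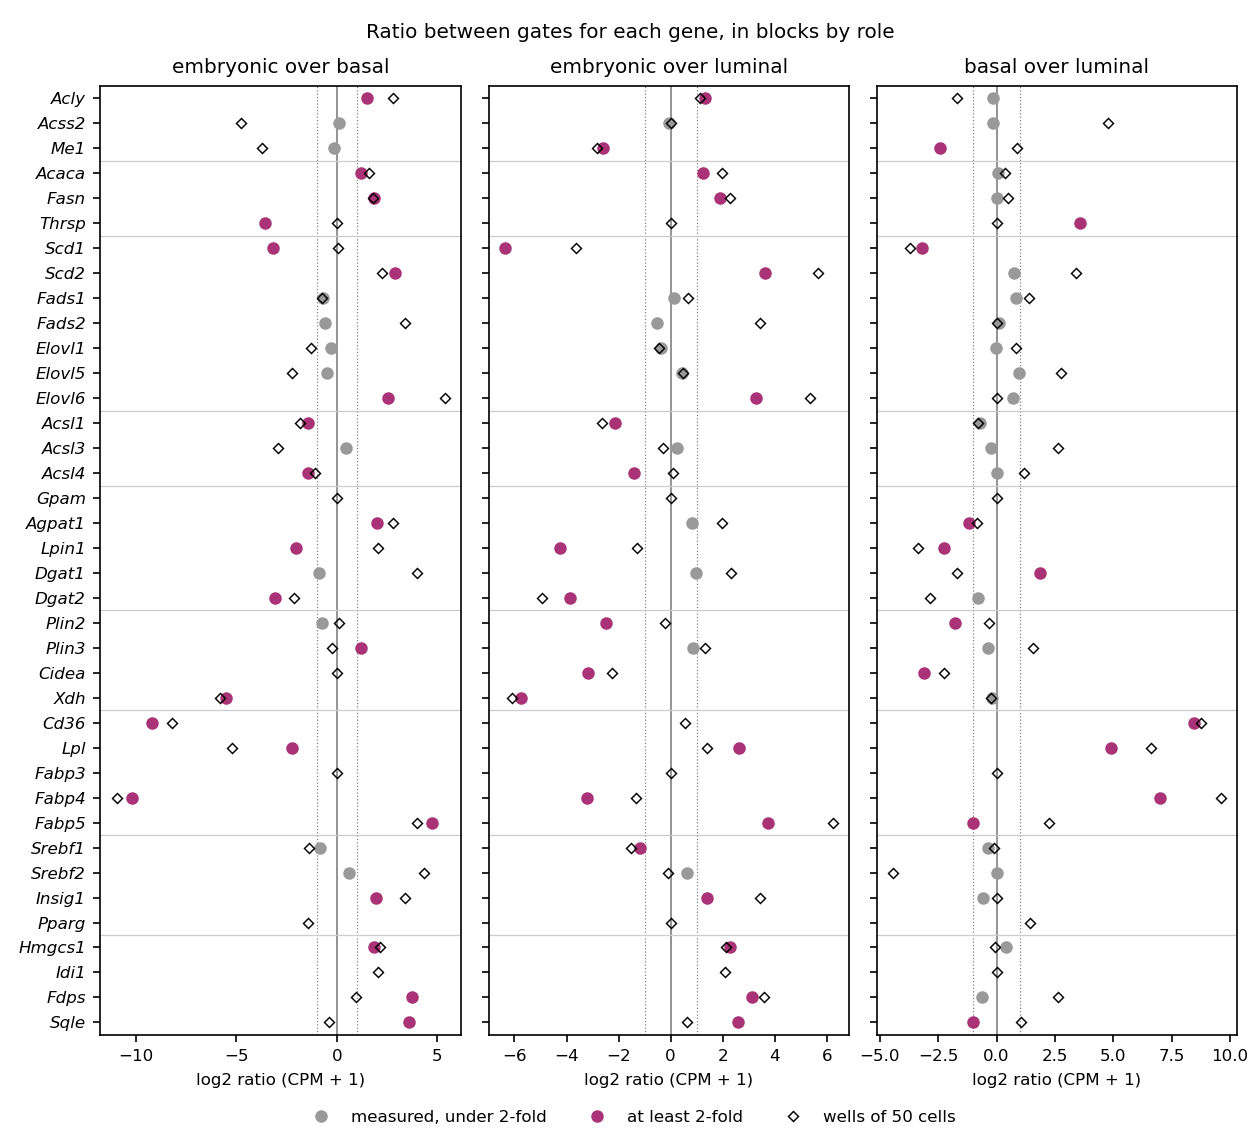
Log2 ratios of (CPM + 1) between gates for each gene (rows, in blocks by role) in single cells (filled circles, coloured from a 2-fold difference on, drawn only for measured genes) and in the wells of 50 cells (open diamonds). The filled circles of the sterol genes at the bottom lie to the right of 0 in the 2 embryonic panels, and Xdh lies far to the left in both.

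The suppliers differed among themselves. Acly, which makes cytosolic acetyl-CoA from citrate, was at 190.5 CPM in embryonic against 67.5 in basal and 75.1 in luminal cells, and at 99.7, 13.3 and 45.04 CPM in the wells of 50 cells. The median embryonic cell had 104.1 CPM (lowest 0, highest 1632), the median basal cell 0 (0 to 3705) and the median luminal cell 1.96 (0 to 877.8). The embryonic sum was 2.82-fold (95% interval 2.72 to 2.92) above basal and 2.54-fold (2.46 to 2.62) above luminal, although single cells of all gates overlapped. A single basal well held 41.7% of the basal reads, and without each gate's top well the log2 ratio to basal was 2.15 in place of 1.48. Under TMM scaling the ratio to luminal was 0.87, which is under 2-fold. Me1, the malic enzyme that yields NADPH, had the other order: 17.98 CPM in embryonic against 20.04 in basal and 112.7 in luminal cells. It was detected in 26.8% of luminal cells (exact Clopper-Pearson 95% interval 18.9 to 35.98, as for all shares of cells), and in 4 cells of each other gate. The luminal sum was 6.27-fold (5.94 to 6.62) above embryonic and 5.62-fold (5.28 to 5.996) above basal, and the log2 ratio of embryonic to luminal was -3.20 without the top wells in place of -2.58. The well of 50 basal cells, at 117.9 CPM, lay above the luminal one at 63.8 CPM, which turns the order of the adult gates. Acss2, which makes acetyl-CoA from acetate, was at 6.80 to 7.74 CPM in all 3 gates. A single well held 91.5% of its luminal reads, and without the top wells embryonic Acss2 was above luminal by a log2 ratio of 1.93.

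Fasn and Acaca, the core of fatty acid synthesis, were both highest in the embryonic gate. Fasn, the synthase, was at 106.2 CPM in embryonic against 28.8 in basal and 28.1 in luminal cells, and at 77.2, 21.6 and 15.0 CPM in the wells of 50 cells. Its median embryonic cell had 52.3 CPM (0 to 1954), while the median was 0 in basal (0 to 709.8) and luminal cells (0 to 520.8). It was 3.69-fold (3.496 to 3.89) above basal and 3.78-fold (3.60 to 3.98) above luminal, and it was detected in 37.8% of embryonic, 8.33% of basal and 10.7% of luminal cells. Acaca, the carboxylase that commits acetyl-CoA to the route, was at 37.7, 15.9 and 15.2 CPM. Both measured genes of the role were higher against luminal cells, but Acaca was at a log2 ratio of 0.88 to basal and 0.81 to luminal under TMM scaling. Thrsp, a regulator of lipogenesis, had no reads in the embryonic and luminal gates, where no cell had it detected, which allows shares of up to 2.36% and 2.68%. Of its basal reads, 99.5% were in 1 well, one of the 7 with endothelial markers, and without it basal Thrsp was at 0.06 CPM.

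Desaturation held neighbouring genes of opposite order. Scd1 and Scd2 are neighbouring stearoyl-CoA desaturase genes, at chr19:44394455-44407879 (minus strand) and chr19:44293674-44306864 (plus strand), 87.6 kb apart, and both put the first double bond into saturated fatty acids. Scd2 was at 1009 CPM in embryonic against 133.9 in basal and 79.9 in luminal cells, and at 911.9, 187.7 and 16.9 CPM in the wells of 50 cells. Its median embryonic cell had 803.2 CPM (0 to 4297), against 0 in basal (0 to 1577) and luminal cells (0 to 1234). Nearly every embryonic cell carried Scd2, while most adult cells had no read of it. The embryonic sum was 7.53-fold (7.36 to 7.72) above basal and 12.6-fold (12.3 to 12.97) above luminal. Scd1 had the reverse order, at 5.47 CPM in embryonic against 57.4 in basal and 531.5 in luminal cells, and at 20.9, 19.9 and 272.1 CPM in the wells of 50 cells. The median luminal cell had 14.2 CPM (0 to 6701), and the medians of embryonic (0 to 268.5) and basal cells (0 to 3314) were 0. The luminal sum was 97.1-fold (88.9 to 106.4) above embryonic and 9.26-fold (8.93 to 9.61) above basal. Without the top wells the log2 ratio of embryonic to luminal was -6.97 in place of -6.36. In the wells of 50 cells embryonic and basal Scd1 were at nearly the same level (log2 ratio 0.066).

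Detection of the paralogs was compared cell by cell. Scd2 without Scd1 was detected in 92.1% of embryonic cells, both genes in 2 cells and neither in 8, so both embryonic cells with Scd1 also had Scd2. In the luminal gate Scd1 alone was detected in 41 cells (36.6%), Scd2 alone in 8, both in 7 and neither in 56. In the basal gate 8 cells had Scd1 and 24 had Scd2, and 0 had both. The paralogs are similar in sequence, so reads that fit both may have been split or dropped in counting. Scd3 and Scd4, from the same cluster, had 2.58 CPM or less in every gate.

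**Figure D3:**
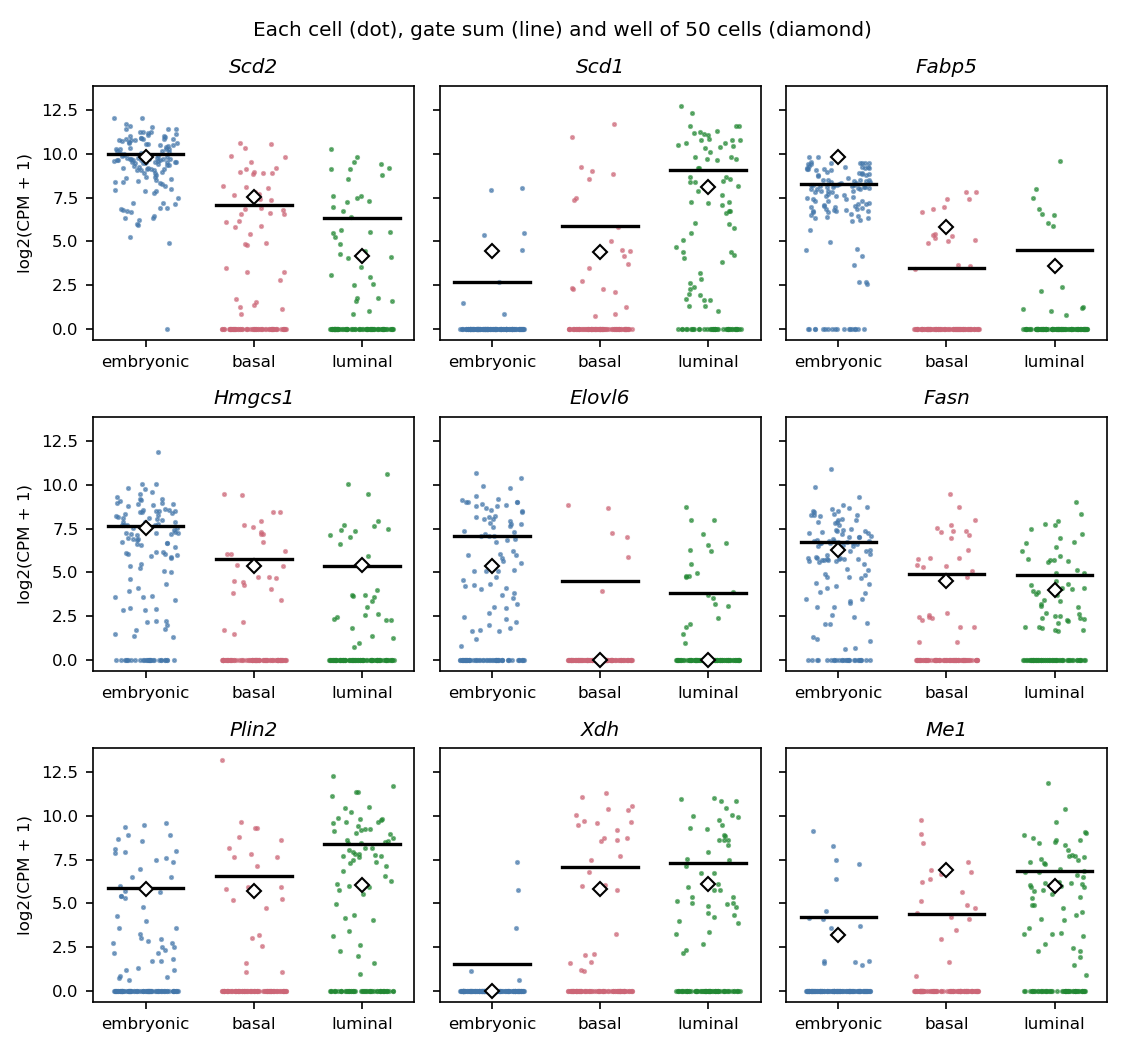
Levels of 9 genes as log2(CPM + 1) in each kept cell (dots, spread sideways at random), in the summed gate (line) and in the well of 50 cells (diamond). Scd2 is above 0 in nearly all embryonic cells and Scd1 mostly in luminal ones, while every gate has cells at 0 for each gene.

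Elovl6, which elongates palmitate, followed Scd2: 133.9 CPM in embryonic against 21.9 in basal and 12.9 in luminal cells, and 40.2, 0 and 0 CPM in the wells of 50 cells. It was detected in 29.9% of embryonic cells (median cell 5.36 CPM, 0 to 1624), 4 basal and 8 luminal cells. The sum was 6.12-fold (5.77 to 6.50) above basal and 10.4-fold (9.70 to 11.1) above luminal, and without each gate's top well the log2 ratio to basal was 3.21 in place of 2.56. The other 4 genes of the role were under 2-fold in all 3 comparisons: Elovl1 at 73.5 to 94.03 CPM, Elovl5 at 52.9 to 103.4, Fads1 at 63.7 to 115.3 and Fads2 at 5.24 to 8.53 CPM. Fads1 and Fads2 are the delta-5 and delta-6 desaturases of polyunsaturated fatty acids, and under TMM scaling Fads1 in embryonic cells was at a log2 ratio of -1.02 to basal. A single well held 79.3% of the basal Fads2 reads, and without the top wells its log2 ratio was 0.59 for embryonic to basal and -1.19 for basal to luminal.

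Of the 3 activation genes, 2 were lower in embryonic cells than in each adult gate, and of 4 measured triglyceride assembly genes 2 were lower than in each, with 1 higher than in basal cells. Over all genes 19.4% were lower than in basal cells, 17.6% lower than in luminal cells and 33.8% higher than in basal cells. Acsl4, an acyl-CoA synthetase that prefers arachidonate, was at 33.3 CPM in embryonic against 92.5 in basal and 91.1 in luminal cells, so that both adult sums were above the embryonic one, by 2.78-fold (2.66 to 2.91) and 2.74-fold (2.62 to 2.86). In the wells of 50 cells it was at 51.5, 111.3 and 48.8 CPM, and the ratio to luminal turned (log2 0.075). Its median cell had 0 CPM in embryonic (0 to 657.3) and basal cells (0 to 1850) and 1.18 CPM in luminal cells (0 to 1440). Acsl1 was lower as well in embryonic cells, at 4.86 CPM against 14.6 and 24.9, but 1 basal well held 64.8% of its basal reads, and without the top wells its log2 ratio of embryonic to basal was -0.47 and that of basal to luminal -1.81. Acsl3, the isoform found on growing droplets, was at 70.9 to 97.5 CPM.

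Lpin1, the phosphatidate phosphatase that yields diacylglycerol, was at 5.06 CPM in embryonic against 23.7 in basal and 115.2 in luminal cells. It was detected in 4, 10 and 30 cells of these gates, with highest cells at 736.8, 558 and 1373 CPM and medians of 0. The luminal sum was 22.8-fold (20.7 to 25.1) above embryonic and 4.87-fold (4.59 to 5.17) above basal, and the wells of 50 cells held 3.22, 0 and 9.38 CPM, on 2, 0 and 5 reads. Dgat2, which adds the last acyl chain, was at 2.36, 27 and 47.9 CPM, and its isoenzyme Dgat1 at 27.7, 51.8 and 13.7 CPM. In single cells the highest gate was thus luminal for Dgat2 and basal for Dgat1. In the wells of 50 cells Dgat1 was at 41.8, 1.66 and 7.51 CPM (26, 1 and 4 reads), so there the embryonic well was highest. Under TMM scaling embryonic Dgat1 was below basal by more than 2-fold (log2 ratio -1.19). In the wells of 50 cells the basal to luminal ratio of Dgat1 had turned too (log2 ratio -1.68). Agpat1, which makes phosphatidate, was the one gene of the role that was higher in embryonic cells, at 43.97 CPM against 10.3 in basal cells. Agpat1, Elovl1, Srebf1 and Hmgcs1 are among 14 of the 38 genes that overlap an annotated gene on the opposite strand, and without the strand mode of the counting such reads cannot be told apart. Gpam, the mitochondrial enzyme of the first step, was not measured in any comparison between gates. Values of genes such as these, which did not reach 50 CPM, are given as levels and were chosen for mention after they were seen.

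Of the 4 droplet genes, 3 were higher in luminal than in embryonic cells and 2 higher than in basal cells. Over all genes these shares were 17.6% and 21.3%. Plin2, the coat protein of cytosolic and milk fat droplets, was at 57.5 CPM in embryonic against 95.1 in basal and 328.8 in luminal cells. It was detected in 12.6% of embryonic, 9.26% of basal and 40.2% of luminal cells. The median luminal cell had 6.43 CPM (0 to 5039), and the medians of embryonic (0 to 766.1) and basal cells (0 to 9524) were 0. The luminal sum was 5.72-fold (5.55 to 5.90) above embryonic and 3.46-fold (3.36 to 3.56) above basal, but 1 basal well held 43.9% of basal reads, and the log2 ratio of basal to luminal was -2.40 without the top wells in place of -1.78. The wells of 50 cells were at 56.3, 51.5 and 65.7 CPM and so hardly differed for Plin2. Embryonic Plin2 was under 2-fold from basal as reported here and at a log2 ratio of -1.03 under TMM scaling. Basal Plin2 was at 56.3 CPM once the wells with 3 or more endothelial markers were left out. The log2 ratio of embryonic to basal Plin2 was then 0.03. With only the top wells left out it was -0.08.

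Xdh, the oxidoreductase that also binds the milk fat globule membrane, was at 1.95 CPM in embryonic against 135.8 in basal and 157.4 in luminal cells, and at 0, 56.5 and 67.6 CPM in the wells of 50 cells. It was detected in 1 embryonic, 18 basal and 22 luminal cells, with medians of 0 and highest cells at 161.8, 2497 and 2095 CPM. The adult sums were 69.8-fold (60.1 to 81.5) and 80.9-fold (69.6 to 94.4) above embryonic and differed by 1.16-fold from each other. Without the top wells the log2 ratio of embryonic to luminal Xdh was -6.43 in place of -5.75. Cidea, which enlarges droplets, had no embryonic and 2 basal reads and was at 7.97 CPM in luminal cells, at least 239-fold above embryonic on a floor of 3 reads per gate. Plin3, a perilipin found free in the cytosol too, was at 141.4, 61.2 and 78.2 CPM. Its embryonic excess over basal cells was at a log2 ratio of 0.88 under TMM scaling and of -0.22 in the wells of 50 cells.

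Of 4 measured uptake and carriage genes, 1 was higher and 3 were lower in embryonic than in basal cells. All genes gave 33.8% higher and 19.4% lower. Fabp5, the epidermal fatty acid binding protein, was at 303.7 CPM in embryonic against 10.3 in basal and 21.7 in luminal cells, and at 915.1, 56.5 and 11.3 CPM in the wells of 50 cells. Its median embryonic cell had 209.3 CPM (0 to 910.9), and the medians of basal (0 to 222.8) and luminal cells (0 to 764.3) were 0. It was detected in 91 embryonic cells (71.7%, 62.98 to 79.3), 7 basal and 6 luminal cells, and the embryonic sum was 29.5-fold (27.2 to 32.2) above basal and 14.01-fold (13.3 to 14.8) above luminal. A single luminal well held 76.5% of the luminal reads, and without the top wells the log2 ratio to luminal was 5.58 in place of 3.75. That of basal to luminal was then 0.60 in place of -1.01.

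Fabp4 and Cd36, the adipocyte fatty acid binding protein and the fatty acid translocase, both also known in capillary endothelium, were high in the basal sum, while the median basal cell had none. Fabp4 was at 0.04 CPM in embryonic against 1220 in basal and 8.56 in luminal cells, and at 1.61, 5195 and 5.63 CPM in the wells of 50 cells. Cd36 was at 0.66, 995.6 and 1.83 CPM, and at 3.22, 1238 and 1.88 CPM in the wells of 50 cells. The highest basal cells were at 43040 CPM of Fabp4 and 23840 CPM of Cd36. The basal sum was 142.5-fold (131.4 to 154.9) above luminal for Fabp4 and 544.4-fold (456.8 to 654.1) for Cd36. In plate row F alone, with 8 basal and 15 luminal cells, the order was turned, at log2 ratios of basal to luminal of -1.47 for Fabp4 and -2.10 for Cd36. Lpl, the lipase that frees fatty acids from lipoproteins, was at 5.22 CPM in embryonic against 28.7 in basal and 0 in luminal cells. A single well held 80.9% of the luminal Fabp4 reads, and a single well 96% of the luminal Cd36 reads. Without the top wells the log2 ratio of basal to luminal was 8.47 for Fabp4 in place of 6.997 and 9.25 for Cd36 in place of 8.46. The embryonic to luminal ratio of Fabp4 was then -1.36 and that of Lpl 1.64, with both genes under 5 CPM.

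These basal reads came from few wells. The 7 basal wells with 3 or more endothelial markers (5.37% of the gate's gene reads) held 97.4% of the Cd36 reads, 87.4% of the Fabp4 reads and 97.6% of the Lpl reads. In those wells the median was 17560 CPM for Cd36 (2246 to 23840) and 25890 CPM for Fabp4 (4692 to 43040). The endothelial receptor Kdr, 1 of the 8 markers by which these wells were chosen, was detected in all 7. The myoepithelial actin Acta2, which was not used in the choice, was detected in 1. In the 96 basal cells with no endothelial marker Cd36 was at 4.99 CPM and Fabp4 at 50.0 CPM, while Acta2 was detected in 86 of them (89.6%, 81.7 to 94.9). All 11 Cd36-positive basal cells also had Fabp4, and 1 of them had Acta2. The 5 basal wells with 1 or 2 endothelial markers held 2.16% of the gate's Cd36 reads and 8.85% of its Fabp4 reads. The 96 cells with no marker held 0.46% and 3.8%, with the highest of these cells at 6104 CPM of Fabp4. Most of what was left outside the 7 wells thus lay in those 5. Without the 7 wells basal Cd36 was at 27.6 CPM and Fabp4 at 163.0 CPM, above luminal by log2 ratios of 3.34 and 4.10. Lpl was then at 0.74 CPM and so lower than in embryonic cells (log2 ratio 1.84), and Thrsp had no reads left. Over the whole endothelial list, 8 of 8 markers had reads in the basal gate, at 457.7 CPM in sum, against 23.9 CPM in embryonic and 10.4 in luminal cells. The sort had excluded CD31, the product of Pecam1, which was at 28.7 CPM in the basal gate.

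**Figure D4:**
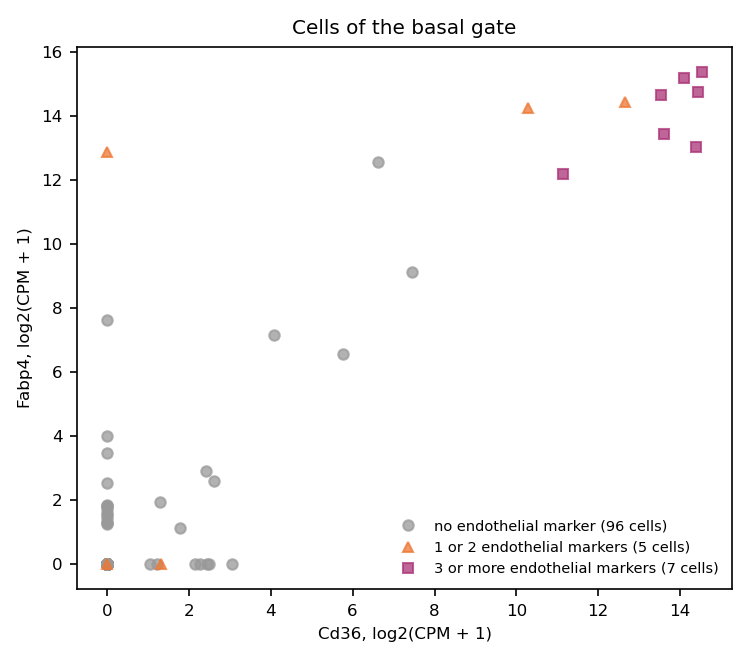
Cd36 (x axis) and Fabp4 (y axis) as log2(CPM + 1) in the kept cells of the basal gate, by the number of endothelial markers detected (symbols). The 7 squares with 3 or more markers sit together at the upper right, and most of the 96 cells without a marker lie at 0 for both genes.

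Adipocytes are another known source of these transcripts. In single basal cells 6 of 8 adipocyte markers, Adipoq, Plin1, Cidec, Lep, Retn and Cfd, were at 0 reads and the list was at 27.4 CPM in sum. In the well of 50 basal cells the list was at 137.9 CPM, with Adipoq at 69.8, Cfd at 41.5 and Lep at 23.3 CPM, beside the 5195 CPM of Fabp4 and an endothelial sum of 297.4 CPM. In the other 2 wells of 50 cells the adipocyte list was at 1.61 and 1.88 CPM. The part of adipocyte RNA in the Fabp4 level of that well was not tested. Fabp3, the carrier of heart and lactating gland, had 1 basal read and no other.

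Of the 3 measured regulators, Insig1 was higher in embryonic cells against both gates and Srebf1 lower against luminal cells. Srebf1, which encodes the SREBP that favours fatty acid genes, was at 51.7 CPM in embryonic against 92.6 in basal and 119.6 in luminal cells, and at a log2 ratio of -1.14 to basal under TMM scaling. Srebf2, which favours sterol genes, was at 74.6, 48.7 and 47.5 CPM and stayed under 2-fold in all comparisons. Both were detected together in 8 embryonic, 5 basal and 4 luminal cells. Insig1, which retains the SREBPs in the endoplasmic reticulum and is itself a target of them, was at 39.6, 9.37 and 14.6 CPM. A single luminal well held 65.3% of its luminal reads. Its embryonic excess over luminal cells was at a log2 ratio of 0.94 under TMM scaling and of 2.44 without the top wells. Pparg, the adipogenic nuclear receptor, was at 2.68 CPM or less in every gate.

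All 3 measured sterol genes were highest in the embryonic gate, in both comparisons and under both scalings. In CPM, 33.8% of all genes were at least 2-fold higher against basal and 39.3% against luminal cells. Hmgcs1, which makes HMG-CoA from acetyl-CoA and acetoacetyl-CoA and whose promoter carries the sterol element shown above, was at 199.4 CPM in embryonic against 53.8 in basal and 40.5 in luminal cells. The wells of 50 cells were at 181.7, 39.9 and 41.3 CPM, the same order of embryonic over adult. Its median embryonic cell had 71.1 CPM (0 to 3696), against 0 in basal (0 to 720.6) and luminal cells (0 to 1558), and the sum was 3.70-fold (3.56 to 3.85) above basal and 4.92-fold (4.73 to 5.13) above luminal.

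Sqle, the squalene epoxidase, was at 107.2, 8.01 and 17.2 CPM, detected in 31.5% of embryonic cells, 5 basal and 4 luminal cells. Its highest cells were at 2405, 255.7 and 1090 CPM, and the median was 4.75 CPM in embryonic and 0 in adult cells. It was 13.4-fold (12.2 to 14.8) above basal and 6.25-fold (5.88 to 6.64) above luminal. In the wells of 50 cells, however, Sqle was at 67.6, 89.7 and 43.2 CPM, so that basal lay above embryonic (log2 ratio -0.40). Without the top wells the log2 ratio of Sqle was 4.52 to basal and 3.38 to luminal, in place of 3.59 and 2.58. Fdps, which makes farnesyl pyrophosphate, was at 57.7, 3.34 and 5.72 CPM, and at 56.3, 28.2 and 3.75 CPM in the wells of 50 cells. Its median embryonic cell had 16.2 CPM (0 to 399), with adult medians of 0 and highest cells at 87.98 CPM in basal and 72.9 CPM in luminal cells. It was 17.3-fold (14.9 to 20.2) above basal and 10.1-fold (9.10 to 11.2) above luminal. Idi1, which isomerises isopentenyl pyrophosphate, was at 3.24 CPM in embryonic cells, under the level for a measured gene.

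Other genes of these routes, 52 in all, were listed by function as well. Of 16 further sterol genes, 13 were at least 2-fold higher in embryonic than in basal cells and none lower, with a median log2 ratio of 1.99. The higher share was 81.25%, where all genes gave 33.8% higher and 19.4% lower. Against luminal cells 10 were higher and 1 lower, with a median of 1.23. These were 62.5% and 6.25%, where all genes gave 39.3% and 17.6%. Ebp, a sterol isomerase, was the one lower gene, at 46.4 against 94.99 CPM in luminal cells. Of 14 measured fatty acid and triglyceride genes outside the set, 4 were higher and 2 lower against basal cells (28.6% and 14.3%). Against luminal cells 5 were higher and 2 lower (35.7% and 14.3%). These shares were a little under those of all genes. Among these 14 genes Lpin2 was at 163.5, 65.3 and 160.5 CPM and Hsd17b12 at 131.8, 38.6 and 52.2 CPM, both chosen for mention after their values were seen.

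In the droplet coat and lipolysis role, none of the measured genes was higher in embryonic cells. Here 4 of 6 were lower than in luminal cells (66.7%, where all genes gave 17.6%). Btn1a1, the butyrophilin of the milk fat globule membrane, was at 0.08, 1.28 and 782.6 CPM, and Mgll, the monoglyceride lipase, at 1.134, 215.5 and 66.1 CPM. The 7 wells with endothelial markers held 40.3% of the basal Mgll reads. Of 11 fatty acid oxidation genes, 1 was higher and 3 lower against basal cells (9.09% and 27.3%), where all genes gave 33.8% and 19.4%. Against luminal cells 1 was higher and 4 lower (9.09% and 36.4%), where all genes gave 39.3% and 17.6%. Acadl, a long-chain dehydrogenase of the pathway, was at 45.4, 174.7 and 235.1 CPM, and Hadha, a subunit of the trifunctional protein, at 73.5, 169.1 and 82.9 CPM. Ppara, the receptor that drives this pathway in liver, was the one higher in embryonic cells, at 9.09 CPM against 0.15 and 0, with 73.3% of the embryonic reads in 1 well.

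Luminal cells were then divided into 2 clusters by their most variable genes with all 90 lipid genes left out. Cluster 1 (65 cells) had on average 7.54 of 12 secretory markers detected and 0.86 of 10 hormone-sensing ones, and it is called secretory-like, with Plb1, Muc15, Ltf and Csn3 among its leading genes. Cluster 2 (47 cells) had 1.23 and 6.60 and is called hormone-sensing-like, with Gpx3, Fgg, Tspan1 and Wfdc2 among its leading genes. Median depths were 479800 and 808300 reads in the clusters. Of 32 measured lipid genes, 15 were at least 2-fold higher in cluster 1 and 6 lower. Over all genes 20.6% were higher and 32.5% lower, against 46.9% and 18.8% here. Without the top well of each cluster 13 were higher and 9 lower. The shares over all genes were not computed without the top wells, so these counts have no background beside them. The clusters come from 1 gate, so this is a description of 1 sample.

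Secretory-like cells held most Scd1, Plin2 and Xdh. Scd1 was at 996.5 CPM in cluster 1 (median cell 326.4, 0 to 6701) and 56.2 CPM in cluster 2 (median 0), a ratio of 17.7 (16.9 to 18.6), and was detected in 38 of 65 against 10 of 47 cells. Plin2 was at 590.5 and 61.4 CPM, a ratio of 9.61 (9.19 to 10.1), detected in 39 and 6 cells. Xdh was at 309.5 and 1.89 CPM, detected in 22 of 65 and 0 of 47 cells. All 3 acyl-CoA synthetases were higher in cluster 1, Acsl1 at 49.1 against 0.09 CPM, Acsl3 at 139.2 against 25.5 and Acsl4 at 130.8 against 50.6. Srebf1 (168.5 and 69.5 CPM) and Insig1 (27.7 and 1.12 CPM) were higher too, though for Insig1 1 luminal well gave most reads. Leaving out the top wells gave a log2 ratio of 2.64 for Insig1 in place of 3.76 and 7.40 for Xdh in place of 6.75. Of the other lipid genes, Btn1a1 was at 1525 and 24.3 CPM, Mgll at 128.6 and 2.25 and Pnpla2, the first lipase of triglyceride breakdown, at 172.7 and 36.6 CPM. With the top wells left out, the log2 ratio was 6.97 for Btn1a1 in place of 5.92 and 6.12 for Mgll in place of 5.32.

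Hormone-sensing-like cells had more of 3 of the 5 triglyceride assembly genes. Dgat2 was at 95.2 CPM in cluster 2 against 1.74 CPM in cluster 1, a ratio of 54.8 (42.5 to 71.98), detected in 12 of 47 and 1 of 65 cells. Dgat1 was at 21.5 against 6.05 CPM and Gpam at 5.50 against 0.06 CPM, the latter with 85.6% of its luminal reads in 1 well. Scd2 was higher there too, 2.52-fold (2.38 to 2.67) above the 45.6 CPM of cluster 1, the reverse of Scd1, as were Elovl1 at 149.3 against 40.0 and Elovl5 at 71.8 against 34.4 CPM. Without the top wells the log2 ratio of cluster 1 to cluster 2 was -6.19 for Dgat2 in place of -5.13 and -2.49 for Scd2 in place of -1.31, and Gpam was no longer measured. Acaca, Fasn, Acly and Me1 differed by less than 2-fold between the clusters, as did Hmgcs1, Fdps and Sqle. Of these, Acly, Hmgcs1, Fdps and Sqle were lower in cluster 1 by more than 2-fold without the top wells (log2 ratios -1.31, -1.30, -1.12 and -1.08), with 79.1% of the Sqle reads of cluster 1 in 1 well. Of 14 other sterol genes measured there, 2 were higher and 8 lower in cluster 1, where all genes gave 20.6% and 32.5%.

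**Figure D5:**
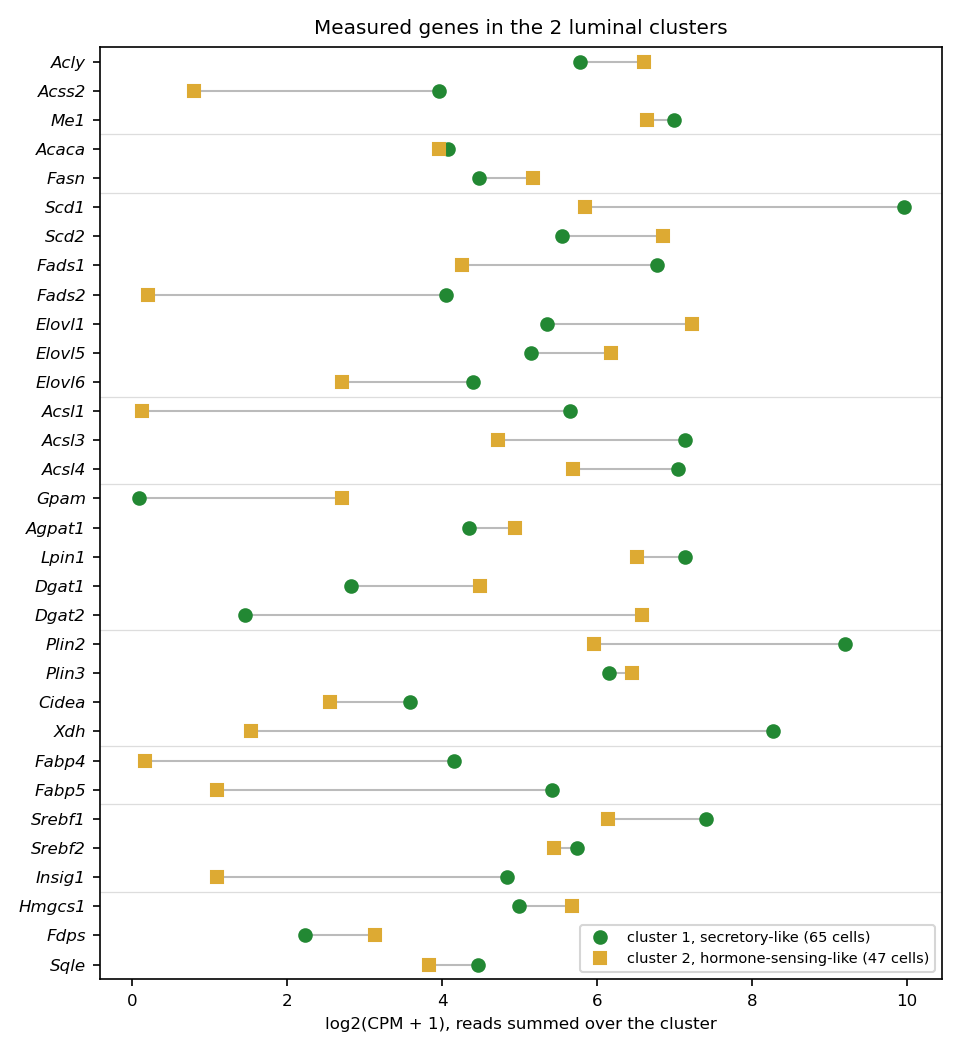
Levels of the 32 measured lipid genes as log2(CPM + 1), from reads summed over the 65 cells of cluster 1 (circles) and the 47 cells of cluster 2 (squares), with blocks by role. Xdh, Acsl1, Scd1 and Plin2 lie far to the right in cluster 1, and Dgat2 in cluster 2.

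Embryonic cells were also divided by genes of the cell cycle. Top2a or Mki67, genes of dividing cells, were detected in 53 cells and neither in 74. Of 27 measured lipid genes, 1 was at least 2-fold higher in the cycling cells and 6 were lower, where all genes gave 14.5% and 15.3%. The higher share thus lay under that of all genes and the lower share above it, while both together were near it. Without the top well of each class 1 was higher and 4 were lower, again with no share over all genes computed. Acaca was the higher one, at 52.4 against 24.4 CPM. The lower ones were Acss2, Me1, Fads2, Dgat1, Plin2 and Lpl, of which Plin2 was at 25.6 against 86.4 CPM. Without the top well of each class Fads2 and Lpl were no longer measured, and the log2 ratio was -2.96 for Acss2 in place of -2.28 and -3.01 for Me1 in place of -1.87. Scd2 was at 872.6 and 1132 CPM, Hmgcs1 at 206.9 and 192.7 and Fasn at 126.2 and 88.1 CPM, each under 2-fold.

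The 22 embryonic cells with 3 or more fibroblast markers were set beside the other embryonic cells. Me1 was at 66.7 against 7.99 CPM, Scd1 at 31.5 against 0.13 and Lpl at 26.01 against 0.95 CPM. Single wells held 75.1% of the Me1 reads of the 22 cells, 52.1% of the Scd1 reads and 70.85% of the Lpl reads. Without the top well of each class Me1 was at 18.2 against 4.41 CPM, Scd1 at 16.2 against 0.04 and Lpl at 8.34 against 0.38 CPM. Plin2 was at 101.2 against 48.5 CPM, and without the top wells the log2 ratio was 0.86, which is under 2-fold. Scd2 (979 and 1015 CPM), Fabp5 (243.1 and 316.2), Hmgcs1 (202.9 and 198.7), Fasn (115.8 and 104.2) and Fdps (63.5 and 56.6) were under 2-fold apart. Sqle was at 44.5 CPM in the 22 cells against 120.1 CPM in the others. The part of fibroblast RNA in these levels was not tested.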

How the data were processed

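The deposited file holds read counts per gene and well, with 49585 genes and 92 ERCC spike-ins. HTSeq 0.6.0, STAR 2.5.2b, cutadapt 1.13 and the build GRCm38 are listed for these counts, per the submitters' processing notes. Annotation and strand mode were not given in the sources used here. Of the 38 genes 21 overlap another annotated gene, 14 on the opposite strand, so reads of such genes may be mixed. Reads carry no molecular identifiers, so PCR copies are counted and intervals are too narrow.

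Symbols and coordinates came from GENCODE M21 (49326 identifiers matched). Single cells were kept from 50000 gene reads, spike-ins left out. No doublet caller was run. A well whose title and gate disagree was left out. There were 127 embryonic, 108 basal and 112 luminal such cells. Counts were summed per gate and scaled to CPM. On the log2 scale 1 CPM was added to each level, a call needed 5 CPM in either gate and 2-fold, and folds are ratios of CPM with exact conditional 95% intervals, or lower limits with 3 reads for a gate at 0. No test was made, since each gate is 1 sample. Shares of cells used 5 of 50000 thinned reads, with Clopper-Pearson intervals, and a share of 0 is given with the limit of 3 cells. Luminal clusters came from k-means on 10 principal components of 1000 variable genes. The call rule and intervals were tested on simulated data. Alternatives were other scalings, filters, priors, plate rows, wells left out and the wells of 50 cells. Leaving out the top wells or the wells with endothelial markers was chosen after seeing the data.

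The 38 genes and all lists were chosen with earlier results of these data known. Some genes of the wider lists are not reported here. Genes are named in full where called in 2 or 3 comparisons and at 50 CPM or more in a gate, or where all measured genes of their role were called in 1 direction. Python 3.11.15, numpy 2.4.6, pandas 2.3.3, scipy 1.17.1, scikit-learn 1.9.0 and matplotlib 3.10.9 were used.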

Additional observations from a re-analysis of the deposited data

Results flagged for a closer look

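Of the 4 wells without a cell, 3 had no read on the lipid genes and the fourth had 1 read, on Scd2. With 1 read in all, 1 well had to stand apart from the other 3, so the gap says nothing about that well. These wells had 34 to 563 gene reads in all.

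The well left out of all comparisons, whose title says luminal and whose gate label says CD49f Hi/Lgr5 Hi, held 1554 reads on the lipid genes among 774060 gene reads. Xdh was at 719.6 CPM there and Plin2 at 661.4 CPM. Scd1, Lpin1 and Dgat2, highest in the luminal gate, had no reads there. Neither had Scd2 and Fabp5, highest in the embryonic gate.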

How the results depend on the processing

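Of the genes called between gates, 16 of 22 (embryonic against basal), 20 of 22 (embryonic against luminal) and 5 of 13 (basal against luminal) kept their direction in all 15 alternatives. Of the others, Thrsp against both gates and Lpl against luminal cells went to 0 in some, and the rest turned. In the wells of 50 cells the embryonic to basal log2 ratio was 0.066 for Scd1, 2.08 for Lpin1, -0.22 for Plin3 and -0.40 for Sqle, the embryonic to luminal one was 0.075 for Acsl4, and the basal to luminal one was 0.88 for Me1, -1.68 for Dgat1, 2.23 for Fabp5 and 1.04 for Sqle. The Lpl ratio to basal was 0.87 without all wells in doubt and 1.84 without wells with endothelial markers. That of Fabp5, basal to luminal, was 0.033 after thinning and 0.60 without the top wells. In plate row F, the row set for the adult gates (8 and 15 cells), Cd36 was at -2.10 and Fabp4 at -1.47. Rows A and O also hold wells of both adult gates and were not added. With 1 thinned read as the limit for a cycling cell, Lpl was at 1.04. Fads2 without the top wells was at -1.78 between embryonic cells with and without 3 fibroblast markers. The cause was not tested in these cases.

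Of the counts, 7 of 31 measured genes were higher in embryonic than luminal cells under TMM and under median-of-ratios scaling (11 as reported). All genes then gave 29.1% and 28.2% higher. Basal to luminal, 5 of 34 measured genes were lower with a prior of 5 CPM (8 as reported), where all genes gave 17.5%. In the wells of 50 cells 13 of 28 were higher (5 as reported), where all genes gave 40.8%. Without endothelial wells 3 of 32 were higher (5 as reported), where all genes gave 27.5%. In row F 27 of 32 differed (13 as reported), 8 higher and 19 lower. All genes gave 27.95% higher and 45.35% lower there, with a median log2 ratio of -0.44. In at least 25% of a gate's cells, 15 genes were detected, 23 at 1 thinned read and 27 at 1 unthinned read. All other counts of genes stayed within 1.5 times of the reported ones under the alternatives run. No paired analysis was possible because the gates share no replicate numbers from the labels and no test was made. Wells of 50 cells at 532820 to 621792 reads leave genes under about 5 CPM to a few reads.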
